A study of Caenorhabditis elegans with 20 samples.

Results

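The *lipl* genes of the nematode *Caenorhabditis elegans* encode acid lipases related to the lysosomal acid lipase of mammals. The 8 genes named *lipl-1* to *lipl-8* were described here, chosen by gene family, though with earlier results of these data known. Each had 1 probe set annotated to it alone, so 8 of 22548 tested probe sets, and 8 of 17118 genes, were followed. Of the 8 genes, 7 lie on chromosome V, and *lipl-7* lies on chromosome IV.

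Lysosomal lipases cut triglycerides and cholesteryl esters that reach the lysosome and so release free fatty acids. In the worm much of the stored fat lies in the intestine, where *lipl-4* is expressed, and *lipl-4* is known as a gene raised in long-lived worms with reduced insulin-like signalling. LIPL-4 is also known to act upstream of the lipid chaperone LBP-8, which carries a fatty acid signal to nuclear receptors. *lipl-1* and *lipl-3* are known as fasting-induced genes, activated by HLH-30, the worm TFEB, and repressed by MXL-3.

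RNA from whole worms was measured on 20 arrays, 5 per genotype. The double mutant *daf-16*(mgdf50); *daf-2*(e1370) was set against *daf-2*(e1370), and *daf-16*(mgdf50); *daf-2*(m577) was set against *daf-2*(m577). The product of *daf-2* is the worm receptor of insulin-like signals, which restrains the FOXO factor made from *daf-16*, so each pair asks what the loss of *daf-16* changes when the receptor is impaired. The background of all 4 strains was *glp-4*(bn2), a temperature-sensitive mutation that acts on the germ line. How many germ cells these animals held was not measured. No strain with wild-type *daf-2* was analysed here. Eggs hatched at 20 °C, larvae grew at 15 °C, and animals were moved to 25 °C at the L4 stage and collected as sterile adults at 1 day of age, from 8 plates for each biological replicate. In RNA from whole animals, fewer cells of a type and less RNA per cell cannot be told apart.

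Values are deposited log2 levels. The 15 Bacillus control probe sets, which have no target in the worm, ranged between 4.21 and 6.29, and a level at or below 6.29 is called here near background. Array medians lay between 6.41 and 6.57. Of 4 probe sets annotated to *daf-16*, 2 were lower in the double mutants over both alleles, by -0.76 ± 0.19 (SE, limma adjusted p = 0.0174) and by -0.69 ± 0.17 (limma adjusted p = 0.0175). The first averaged 6.21 in the double mutants, against 6.98 in *daf-2*, and the second 5.18, against 5.87. Their double-mutant means were thus near background, as was the second's *daf-2* mean, and their arrays overlapped in each allele. The other 2 were not called at -0.07 ± 0.27 and -0.38 ± 0.25, and which of the 4 lie in the deleted stretch was not stated in the labels. Although the strains are sterile, genes of germ cells averaged 7.66 to 10.88 per array and genes of sperm 6.62 to 9.50. Over both alleles limma called 0 of 20 germ cell genes and 0 of 12 sperm genes, with 0 and 1 at an unadjusted p under 0.05. Their median differences were 0.35 and 0.685, against -0.01 for all genes. Within *daf-16*(mgdf50); *daf-2*(e1370) the array means had an SD of 1.26 for germ cell genes and 1.25 for sperm genes. With that spread, differences of this size could go uncalled.

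With *daf-16* lost, *lipl-4* was much lower in both *daf-2* alleles. In *daf-16*(mgdf50); *daf-2*(e1370), the 5 arrays read 5.41, 5.48, 5.58, 5.67 and 5.88, against 9.19, 8.01, 8.86, 8.52 and 7.77 in *daf-2*(e1370). In *daf-16*(mgdf50); *daf-2*(m577), they read 5.38, 5.66, 5.73, 5.63 and 6.18, against 7.21, 8.22, 7.30, 7.88 and 8.08 in *daf-2*(m577). All 10 double-mutant arrays were near background, all 10 *daf-2* arrays were above it, and the groups did not overlap in either allele.

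**Figure D1:**
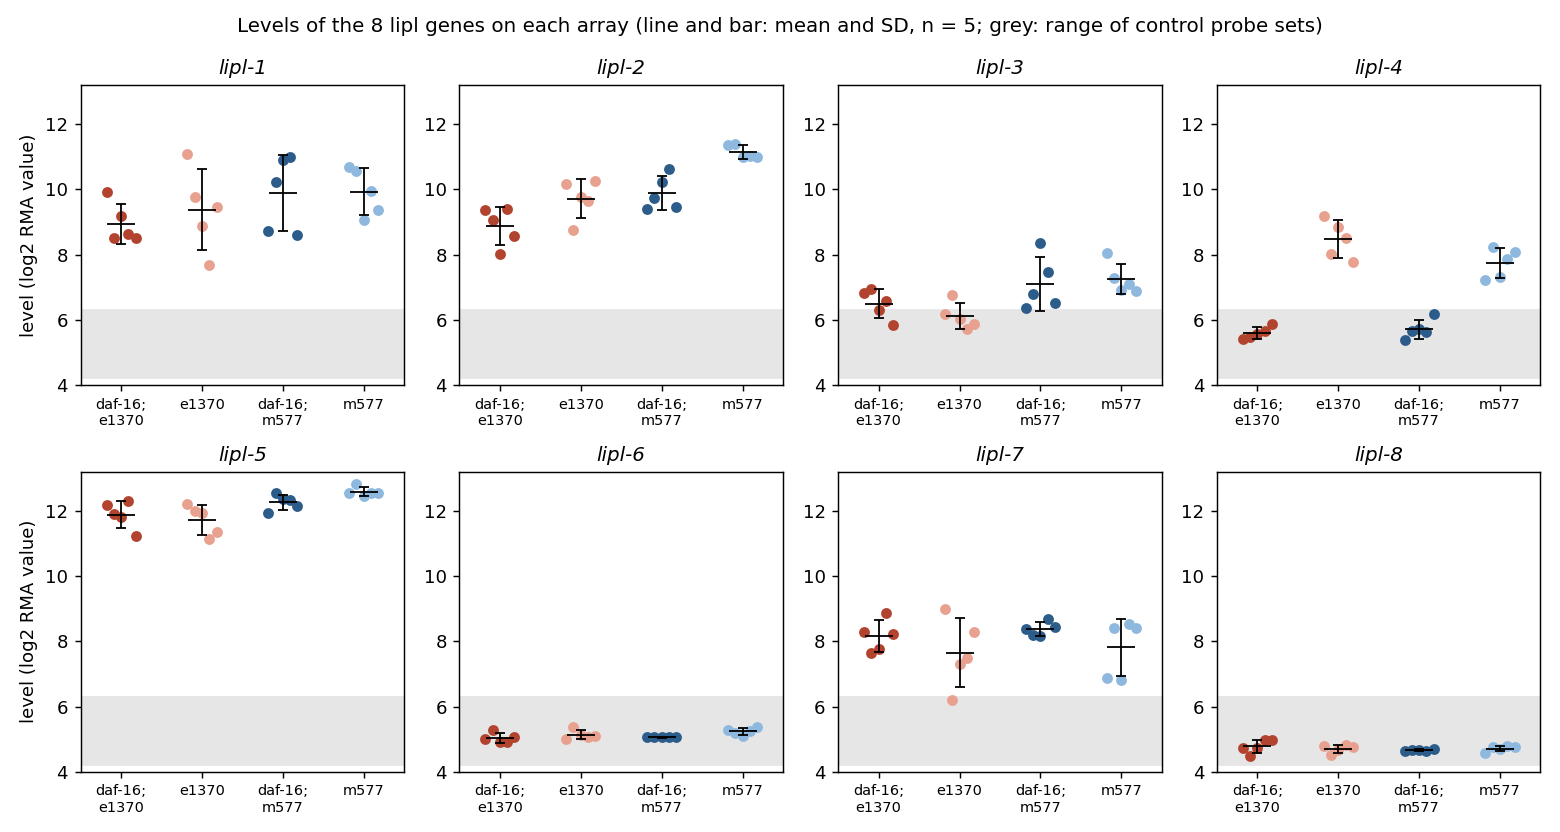
Log2 level of each *lipl* gene (vertical axis) on the 20 arrays, by genotype, with the double mutant left of its *daf-2* strain. Points are arrays, bars are means ± SD (n = 5), and the grey band is the range of the Bacillus controls, 4.21 to 6.29; *lipl-4* lies in that band in both double mutants and above it in both *daf-2* strains.

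In e1370 the mean *lipl-4* level was 5.60 ± 0.18 in the double mutant, against 8.47 ± 0.58 in *daf-2* (SD, n = 5 each), a difference of -2.87 ± 0.25 (SE, limma adjusted p = 5.87e-07) or a measured 7.30-fold lower level. In m577 it was 5.72 ± 0.29 in the double mutant, against 7.74 ± 0.46 in *daf-2*, a difference of -2.02 ± 0.25 (SE, limma adjusted p = 0.000151), or 4.06-fold lower. Since the double-mutant level sits in the range of the controls, the fold is also given as a bound against the highest control value. On that count *lipl-4* was at least 4.52-fold lower in e1370 and at least 2.72-fold lower in m577.

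Over both alleles the difference for *lipl-4* was -2.44 ± 0.18 (SE, limma adjusted p = 3.58e-08), and against the highest control value *lipl-4* was at least 3.51-fold lower. The difference in e1370 minus that in m577 was -0.85 ± 0.35, with a limma p of 0.0279 that did not pass after adjustment (adjusted p = 0.788), so the falls were not shown to differ between the alleles. The m577 difference was -1.78 and lost its call (adjusted p = 0.0746) when the gap between 3′ and 5′ probe sets of control transcripts, a sign of RNA and labelling quality, was added as a covariate. That gap ran from 1.72 to 2.32 in *daf-16*(mgdf50); *daf-2*(m577), against 1.19 to 1.61 in *daf-2*(m577), with no overlap. In e1370 it ran from 1.29 to 1.55 in the double mutant, against 1.23 to 1.68 in *daf-2*. Its part in the m577 result was not tested further.

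**Figure D2:**
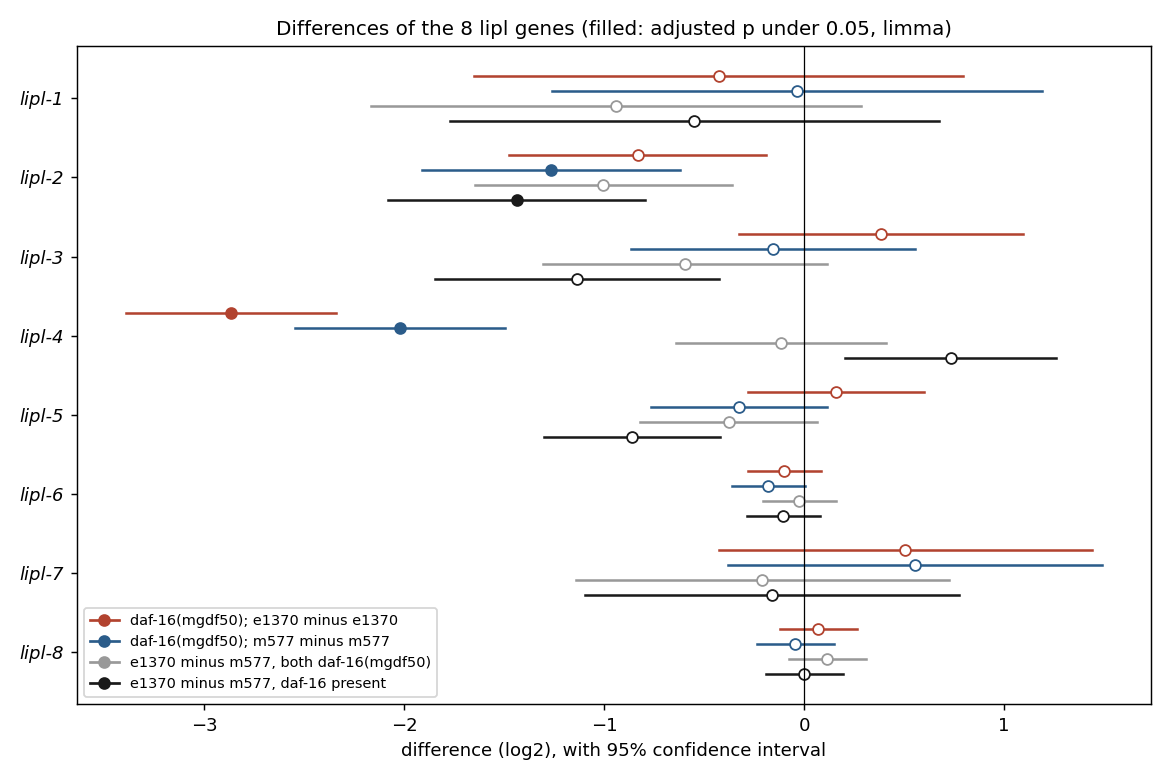
Differences in log2 level (horizontal axis) of the 8 *lipl* genes in 4 comparisons, the double mutant minus its *daf-2* strain in each allele and e1370 minus m577 without and with *daf-16*. Points are limma estimates with 95% confidence intervals, filled where the adjusted p was under 0.05; *lipl-4* is the farthest from 0, at -2.87 in e1370 and -2.02 in m577.

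*lipl-2*, another acid lipase of the family, was also lower in the double mutants over both alleles. In *daf-16*(mgdf50); *daf-2*(e1370), its arrays read 9.37, 9.05, 8.03, 9.40 and 8.58, against 10.16, 8.75, 9.77, 9.64 and 10.26 in *daf-2*(e1370). In *daf-16*(mgdf50); *daf-2*(m577), they read 9.40, 9.74, 10.23, 10.63 and 9.46, against 11.37, 11.40, 10.98, 11.03 and 10.99 in *daf-2*(m577). The e1370 groups overlapped through replicate 2 of *daf-2*(e1370), and the m577 groups did not overlap.

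The difference for *lipl-2* over both alleles was -1.05 ± 0.22 (SE, limma adjusted p = 0.00439), or 2.07-fold lower. In m577 the means were 9.89 ± 0.53 in the double mutant and 11.15 ± 0.21 in *daf-2* (SD, n = 5 each), a difference of -1.27 ± 0.31 (SE, limma adjusted p = 0.0394). In e1370 they were 8.88 ± 0.58 in the double mutant and 9.72 ± 0.60 in *daf-2*, and the difference of -0.83 ± 0.31 was not called (limma adjusted p = 0.191, 95% interval -1.48 to -0.19). Without replicate 2 of *daf-2*(e1370) the e1370 difference was -1.07 and passed (limma adjusted p = 0.0376). The 2 differences were not shown to differ from each other, with a contrast between them of 0.43 ± 0.43 (limma adjusted p = 0.965).

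The m577 call for *lipl-2* was close to the threshold. It was lost on leaving out any of 10 single arrays, namely replicate 4 of *daf-2*(e1370), each replicate of *daf-2*(m577) and replicates 1, 2, 3 and 5 of *daf-16*(mgdf50); *daf-2*(m577), with differences between -1.45 and -1.14 over all 20 such fits and a limma adjusted p of at most 0.126. The call over both alleles held on leaving out each array (limma adjusted p at most 0.0107), but not with the 3′ to 5′ gap as a covariate (-1.07, adjusted p = 0.0847).

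The other 6 genes were not called for loss of *daf-16* in any of these 3 comparisons. Over both alleles, 2 of 8 *lipl* genes were called, both lower, where 6.32 percent of all probe sets were called and 3.63 percent were called lower and 2.69 percent higher. In e1370 it was 1 of 8, *lipl-4*, against 4.38 percent of all probe sets and 2.4 percent called lower. In m577 it was 2 of 8, *lipl-2* and *lipl-4*, against 1.79 percent and 1.2 percent called lower. For the difference between the alleles' differences limma called 0 of 8, with 1 at an unadjusted p under 0.05, against 0.177 percent of all probe sets. The arrays did not overlap with the double mutant lower for 1 of 8 genes in e1370, *lipl-4*, against 2.01 percent of all probe sets. In m577 this held for 3 of 8, *lipl-2*, *lipl-4* and *lipl-6*, against 3.38 percent. Of these, *lipl-6* was near background on all 20 arrays. The median difference over both alleles was -0.11 for the 8 genes and -0.02 for all probe sets.

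*lipl-1*, one of the fasting-induced lipases, spread widely within genotypes and was not called. Its arrays of *daf-16*(mgdf50); *daf-2*(e1370) read 9.91, 8.49, 9.18, 8.64 and 8.49, against 11.07, 9.76, 8.87, 7.69 and 9.47 in *daf-2*(e1370). Those of *daf-16*(mgdf50); *daf-2*(m577) read 8.72, 10.22, 10.89, 11.003 and 8.59, against 10.67, 10.58, 9.06, 9.95 and 9.35 in *daf-2*(m577). The groups overlapped in both alleles, and within *daf-2*(e1370) the arrays lay over 3 apart on the log2 scale. The difference was -0.43 ± 0.58 in e1370 (limma adjusted p = 1.00, 95% interval -1.65 to 0.80) and -0.04 ± 0.58 in m577 (limma adjusted p = 0.984).

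The low *lipl-1* arrays of *daf-16*(mgdf50); *daf-2*(m577) were replicates 1 and 5, at 8.72 and 8.59, against 10.22 to 11.003 in the other 3. The same 2 arrays had the lowest mean level of 12 intestinal marker genes in that genotype, 9.49 and 9.59, against 10.17 to 10.50 in the other 3. In *daf-2*(m577) the pairing was partial. Replicate 3 was lowest in both (9.06, marker mean 8.76). However, *lipl-1* read 10.67 on replicate 1 and 9.35 on replicate 5, where the marker mean was 9.31 and 9.82. For the e1370 double mutant, replicates 2 and 5 had the lowest *lipl-1* levels (8.494 and 8.495) and the lowest marker means (9.25 and 9.29). Replicate 1 was highest in both (9.91, marker mean 10.35). Among *daf-2*(e1370) arrays, *lipl-1* was lowest on replicate 4 (7.69, marker mean 8.41) and the marker mean on replicate 5 (7.89, *lipl-1* 9.47). The pairing was not particular to intestinal genes. The mean of 7 body wall muscle genes was lowest on the same replicates of *daf-16*(mgdf50); *daf-2*(m577), at 10.44 and 10.69, against 10.999 to 11.26. In the e1370 double mutant it was lowest on replicates 2 and 5 (9.90 and 9.65) and highest on replicate 1 (11.20). In *daf-2*(m577) it was lowest on replicate 3 (10.04), and in *daf-2*(e1370) on replicate 5 (10.12). How far the level of either list accounts for the *lipl-1* values was not tested.

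*lipl-3*, the other fasting-induced lipase named above, lay close to background in e1370 and was not called for loss of *daf-16*. Its probe set is of the kind whose probes can match more than 1 transcript. In *daf-16*(mgdf50); *daf-2*(e1370), its arrays read 6.82, 6.95, 6.30, 6.58 and 5.85, against 6.18, 6.76, 6.03, 5.73 and 5.87 in *daf-2*(e1370), where 4 of 5 were near background. In *daf-16*(mgdf50); *daf-2*(m577), they read 6.36, 6.79, 8.35, 7.47 and 6.51, against 8.04, 7.29, 6.92, 7.11 and 6.89 in *daf-2*(m577). The double mutants overlapped their *daf-2* strains in both alleles, and the difference over both was 0.12 ± 0.24 (limma adjusted p = 0.864).

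*lipl-5* had levels far above background on all 20 arrays, and loss of *daf-16* gave no call. It read 12.17, 11.90, 11.82, 12.30 and 11.22 on the arrays of *daf-16*(mgdf50); *daf-2*(e1370), against 12.21, 11.99, 11.94, 11.13 and 11.35 in *daf-2*(e1370). The arrays of *daf-16*(mgdf50); *daf-2*(m577) read 11.93, 12.54, 12.35, 12.34 and 12.14, against 12.54, 12.84, 12.46, 12.55 and 12.54 in *daf-2*(m577). The groups overlapped in both alleles. Its means were 11.88 ± 0.42 in *daf-16*(mgdf50); *daf-2*(e1370), against 11.72 ± 0.46 in *daf-2*(e1370). Levels were 12.26 ± 0.23 in *daf-16*(mgdf50); *daf-2*(m577), against 12.58 ± 0.15 in *daf-2*(m577) (SD, n = 5 each). The difference over both alleles was -0.08 ± 0.15 (limma adjusted p = 0.841).

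*lipl-7* averaged 8.16 ± 0.49 in *daf-16*(mgdf50); *daf-2*(e1370), against 7.65 ± 1.06 in *daf-2*(e1370). Levels were 8.37 ± 0.21 in *daf-16*(mgdf50); *daf-2*(m577), against 7.81 ± 0.88 in *daf-2*(m577) (SD, n = 5 each). The spread was wide in both *daf-2* strains, and the groups overlapped. Its difference over both alleles was 0.53 ± 0.31 (limma adjusted p = 0.472, 95% interval -0.13 to 1.19). In *daf-2*(m577), replicates 1 and 3 read 6.89 and 6.81, against 8.42 to 8.52 in the other 3, and the intestinal marker mean was 9.31 and 8.76 on those 2 arrays, against 9.77 to 9.89. In *daf-2*(e1370) no such pairing was seen. *lipl-7* read 8.996 on replicate 1 and 6.19 on replicate 2, where the marker mean was 8.793 and 8.797, and 8.28 on replicate 5, at 7.89. In *daf-16*(mgdf50); *daf-2*(e1370), replicate 2 was lowest in both (7.64, marker mean 9.25). In *daf-16*(mgdf50); *daf-2*(m577), *lipl-7* was lowest on replicate 3 (8.16, marker mean 10.17) and the marker mean on replicate 1 (9.49, *lipl-7* 8.37). On replicates 1 and 3 of *daf-2*(m577), the mean of 7 body wall muscle genes was 10.94 and 10.04, against 10.96 to 11.21 in the other 3. The part of either list's level in the *lipl-7* values was not tested.

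*lipl-6* and *lipl-8* were near background on all 20 arrays. *lipl-6* ranged from 4.91 to 5.38 and *lipl-8* from 4.50 to 4.98, inside the range of the Bacillus controls, so a fall in either gene could not be measured. The *lipl-6* arrays did not overlap in m577, where the difference was -0.18 ± 0.09 (limma adjusted p = 0.395), and over both alleles it was -0.14 ± 0.06 (limma adjusted p = 0.27).

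The 2 *daf-2* alleles were also set against each other, e1370 minus m577, with *daf-16* present and with it lost. With *daf-16* present, *lipl-2* was lower in *daf-2*(e1370) than in *daf-2*(m577), at -1.44 ± 0.31 (SE, limma adjusted p = 0.0253), or 2.71-fold lower, with no overlap. *lipl-5* (-0.86 ± 0.21, adjusted p = 0.0513) and *lipl-3* (-1.14 ± 0.34, adjusted p = 0.0979) did not pass limma's threshold, although their arrays did not overlap either. *lipl-5* passed on leaving out any of 7 single arrays, replicates 1 and 3 of *daf-2*(e1370), 3 of *daf-2*(m577) and 1, 2, 4 and 5 of *daf-16*(mgdf50); *daf-2*(e1370). Thus 1 of 8 genes was called, against 1.32 percent of all probe sets and 0.59 percent called lower, and 3 of 8 did not overlap with e1370 lower, against 1.41 percent of all probe sets.

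*lipl-4* ran the other way between the alleles with *daf-16* present, at 0.73 ± 0.25 (limma adjusted p = 0.152, 95% interval 0.21 to 1.26), and its arrays overlapped. *lipl-1* differed by -0.55 ± 0.58 (limma adjusted p = 0.684) and *lipl-7* by -0.16 ± 0.44 (limma adjusted p = 0.887). The mean of the 12 intestinal markers was 8.51 ± 0.38 in *daf-2*(e1370), range 7.89 to 8.80, and 9.51 ± 0.48 in *daf-2*(m577), range 8.76 to 9.89 (SD, n = 5 each). That mean includes *pept-1*, *nhx-2* and *pho-1*, which averaged near background in *daf-2*(e1370). The part of the marker mean in these allele differences was not tested. The *lipl-2* call was lost on leaving out any of 6 single arrays, replicates 2 and 4 of *daf-2*(e1370) and 1, 2, 4 and 5 of *daf-2*(m577), with differences between -1.57 and -1.20 over the 20 fits.

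With *daf-16* lost, limma called 0 of 8 *lipl* genes between the alleles, with 1 at an unadjusted p under 0.05, and 0.00443 percent of all probe sets, which is 1 probe set. *lipl-2* was at -1.004 ± 0.31 (limma adjusted p = 1) and *lipl-4* at -0.11 ± 0.25 (limma adjusted p = 1). The order of *lipl-2* levels was *daf-2*(m577) highest, *daf-16*(mgdf50); *daf-2*(e1370) lowest, and the other two between them, at 9.89 and 9.72, with overlapping arrays. The order of *lipl-4* levels was *daf-2*(e1370), *daf-2*(m577), then both double mutants, and neither the *daf-2* strains nor the double mutants differed past the threshold between alleles.

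Among 9841 genes whose mean over the 20 arrays was above the controls, those whose values over the 20 arrays lay closest to *lipl-4* were Y9C9A.16, *svct-1* and *aakg-4*, the last a gamma subunit of AMP-activated protein kinase. Closeness was the root mean square difference of log2 values, each gene centred on its own mean, and it was 0.38 for Y9C9A.16, 0.40 for *svct-1* and 0.44 for *aakg-4*, where the median gene stood at 1.41. Y9C9A.16 and *svct-1*, like *lipl-4*, were near background on all 10 double-mutant arrays and entered through their levels in the *daf-2* strains. Against the highest control value Y9C9A.16 was at least 7.76-fold lower in e1370 and at least 3.89-fold lower in m577, and *svct-1* at least 2.87-fold and at least 1.86-fold lower. *aakg-4* differed by -2.56 in e1370 and -1.38 in m577, with 1 of 5 arrays near background in each double mutant. The choice of these genes by likeness fixes that they moved with *lipl-4*, so these values are a description.

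**Figure D3:**
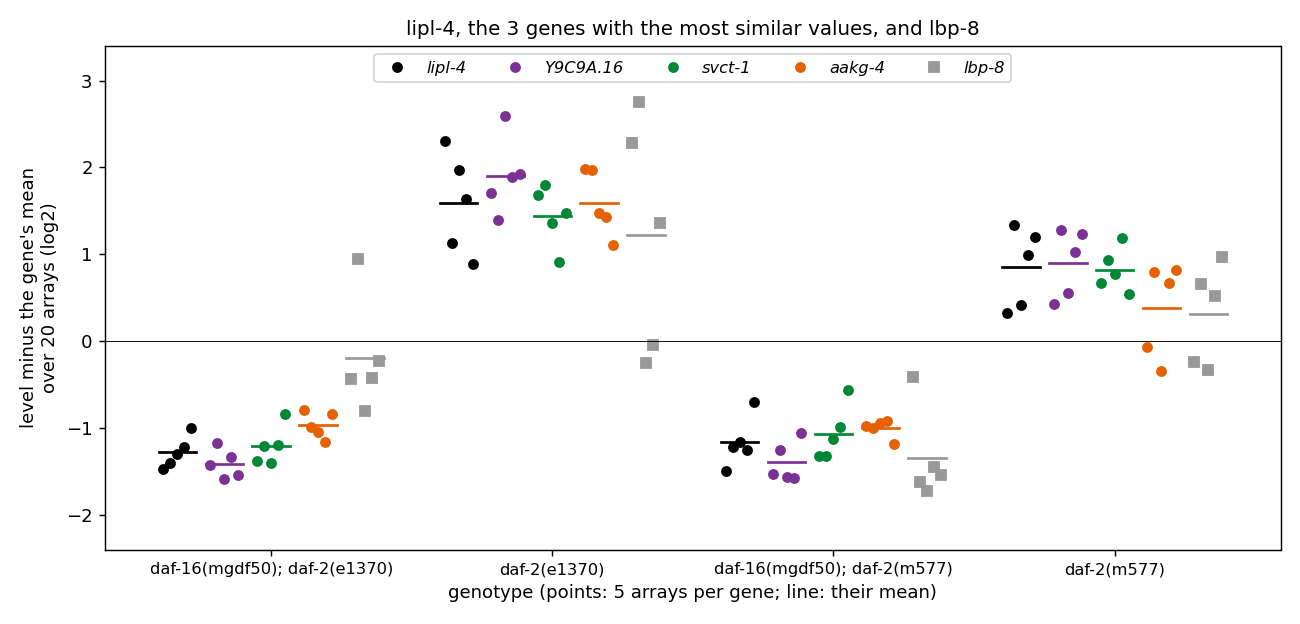
Log2 level minus the gene's mean over 20 arrays (vertical axis) for *lipl-4*, Y9C9A.16, *svct-1*, *aakg-4* and *lbp-8*, by genotype. Points are the 5 arrays and lines their means; the first 4 genes lie below 0 on all double-mutant arrays, while *lbp-8* has a double-mutant array above 0.

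For *lipl-2* the closest genes were *asp-13*, an aspartyl protease, at 0.49, C44E12.1 at 0.51 and *dhs-20*, of the short-chain dehydrogenase family, at 0.52, against 1.08 for the median gene. Over both alleles *asp-13* differed by -0.95 ± 0.22 (limma adjusted p = 0.0113, and 0.101 with the 3′ to 5′ gap as a covariate) and *dhs-20* by -1.03 ± 0.13 (adjusted p = 3.75e-05), while C44E12.1 was not called (-0.70 ± 0.24, adjusted p = 0.105). These values, too, follow from the choice and are a description.

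Of 14 regulators and partners of lysosomal lipases, 1 was called over both alleles, where 6.32 percent of all probe sets were called. It was *lbp-8*, the chaperone that acts with LIPL-4. *lbp-8* ranged from 6.18 to 7.93 (mean 6.79 ± 0.67) in *daf-16*(mgdf50); *daf-2*(e1370), against 6.73 to 9.74 (8.20 ± 1.35) in *daf-2*(e1370). It ranged from 5.26 to 6.57 (5.64 ± 0.53) in *daf-16*(mgdf50); *daf-2*(m577), against 6.65 to 7.95 (7.30 ± 0.57) in *daf-2*(m577). Of the 5 double-mutant arrays in m577, 4 were near background, so the size of the difference there is limited by the background. The groups overlapped in e1370 and not in m577, and the measured difference over both alleles was -1.54 ± 0.36 (limma adjusted p = 0.0118). In neither allele alone was *lbp-8* called (limma adjusted p = 0.175 in e1370 and 0.127 in m577). Its probe set is of a kind whose probes can also match other transcripts.

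The other 13 were not called. *hlh-30* differed by 0.20 ± 0.26 (limma adjusted p = 0.766), and the receptor genes *nhr-49* and *nhr-80*, which act downstream of LBP-8, by -0.03 ± 0.15 (adjusted p = 0.952) and -0.29 ± 0.24 (adjusted p = 0.636). *mxl-3* differed by 0.59 ± 0.41 in e1370 (limma adjusted p = 0.867) and by -0.85 ± 0.41 in m577 (adjusted p = 0.389), opposite signs that were not called and were not shown to differ (limma adjusted p = 0.748). The median of the 14 was -0.01, where that of all genes was -0.01.

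Of 18 other lipase-like genes measured of 19 listed, 2 were called lower and none higher, against 3.63 percent of all probe sets called lower and 2.69 percent higher. *lips-17* differed by -1.67 ± 0.38 (limma adjusted p = 0.00891) and *lips-15* by -1.15 ± 0.20 (limma adjusted p = 0.00106). *lips-17* was called in neither allele alone (limma adjusted p = 0.0607 in e1370 and 0.209 in m577), and its arrays overlapped in both. *lips-15* averaged 7.96 ± 0.40 in *daf-16*(mgdf50); *daf-2*(e1370), against 9.69 ± 0.39 in *daf-2*(e1370), with no overlap. In m577 it averaged 7.86 ± 0.63 in *daf-16*(mgdf50); *daf-2*(m577), against 8.41 ± 0.42 in *daf-2*(m577), with overlap. The list's median was -0.12. Of the genes not called, *lips-1*, *lips-2*, *lips-3*, *lips-6*, *lips-7*, *lips-8*, *lips-11*, *lips-12*, *lips-13* and *fil-2* averaged near background in each genotype. A fall in those genes could not be measured. With the 3′ to 5′ gap as a covariate neither gene was called.

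**Figure D4:**
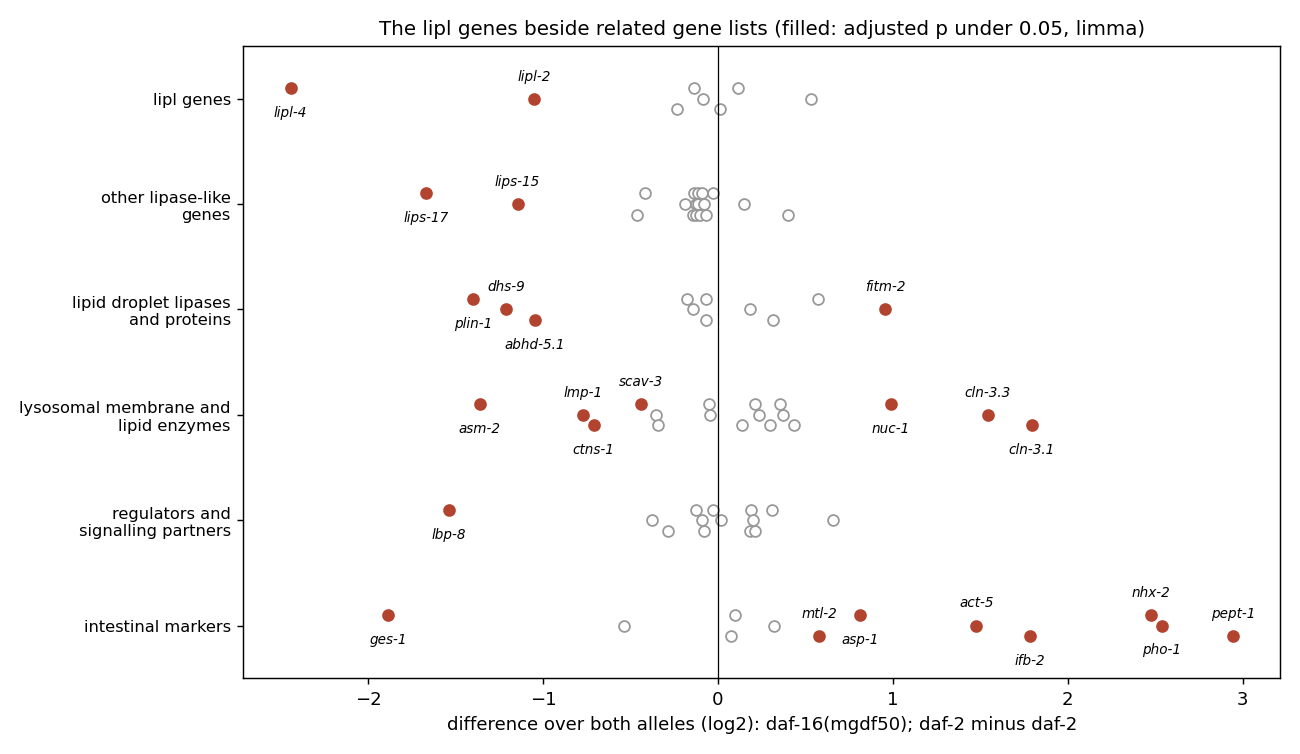
Differences over both alleles in log2 level (horizontal axis, double mutant minus *daf-2*) for the *lipl* genes and 5 gene lists. Filled points have a limma adjusted p under 0.05 and carry a name; called *lipl* genes lie below 0, while 7 of the 8 called intestinal markers lie above it.

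Fat can also be freed outside the lysosome, at the surface of lipid droplets. Of 11 droplet lipases and droplet proteins measured of 13 listed, 3 fell and 1 rose, against 3.63 percent of all probe sets called lower and 2.69 percent higher. Perilipin *plin-1* differed by -1.40 ± 0.21, *dhs-9* of the short-chain dehydrogenase family by -1.21 ± 0.19, *abhd-5.1*, a relative of a mammalian lipase co-activator, by -1.05 ± 0.17, and *fitm-2*, of a family that acts in droplet formation, by 0.95 ± 0.16 (limma adjusted p at most 0.000867). With the 3′ to 5′ gap as a covariate *abhd-5.1* was not called (-0.74, limma adjusted p = 0.111). Taken alone, e1370 gave no call for *plin-1* (limma adjusted p = 0.0612) and m577 none for *fitm-2* (limma adjusted p = 0.0581). *dhs-9* did not overlap in either allele. The cytosolic lipase genes *atgl-1* (-0.07 ± 0.22, adjusted p = 0.917) and *hosl-1* (-0.18 ± 0.11, adjusted p = 0.519) were not called by limma. The median of the list was -0.07.

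Of 18 other lysosomal genes measured of 22 listed, 3 rose and 4 fell, against the same 2.69 percent higher and 3.63 percent lower. *cln-3.1*, near background on 3 of 5 *daf-2*(e1370) arrays, and *cln-3.3*, both relatives of the human gene of juvenile Batten disease, differed by 1.79 ± 0.28 and 1.54 ± 0.15, and *nuc-1*, a lysosomal DNase, by 0.99 ± 0.21. *asm-2*, an acid sphingomyelinase, differed by -1.36 ± 0.32, *lmp-1*, a membrane protein of the LAMP family, by -0.77 ± 0.18 and *ctns-1*, the relative of cystinosin, by -0.71 ± 0.14. Taken alone, e1370 gave a call for *asm-2*, *nuc-1*, *ctns-1* and *cln-3.1*, and m577 did not (limma adjusted p = 0.582, 0.457, 0.199 and 0.0821). *cln-3.3* was called in each allele, and *lmp-1* in neither (limma adjusted p = 0.111 in e1370 and 0.195 in m577). The other *lmp-1* probe set, at -0.07 over both alleles (limma adjusted p = 0.919), was not called. The median of the 18 was 0.18. The 4 falls became 0 calls with the 3′ to 5′ gap as a covariate or the number in the alternative sample name as a block, and *nuc-1* was called in neither (limma adjusted p = 0.109 and 0.24). They became 2 with germ cell and sperm levels as covariates and without the 3 arrays of lowest sperm gene level.

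Some markers of the intestine moved with *daf-16* loss too, mostly upward. Of 12, 7 were higher, 1 was lower and 4 were not called over both alleles, against 2.69 percent of all probe sets called higher and 3.63 percent lower. *pept-1*, the gut peptide transporter, was at a measured 2.95, near background on 4 of 5 *daf-2*(e1370) and 2 of 5 *daf-2*(m577) arrays, and *ges-1*, a gut esterase, at -1.88. Markers *elt-2* and *elt-7* differed little. In e1370 they averaged 7.51 and 8.36 in the double mutant, against 7.36 and 8.16 in *daf-2*. In m577 they averaged 7.63 and 8.42, against 7.58 and 8.48. The mean level of the 12 markers averaged 9.79 ± 0.50 (range 9.25 to 10.35) in *daf-16*(mgdf50); *daf-2*(e1370), against 8.51 ± 0.38 (range 7.89 to 8.80) in *daf-2*(e1370). It was 10.02 ± 0.46 (range 9.49 to 10.50) in *daf-16*(mgdf50); *daf-2*(m577), against 9.51 ± 0.48 (range 8.76 to 9.89) in *daf-2*(m577) (SD, n = 5 each). The marker mean includes genes that themselves changed with *daf-16* loss. In *daf-2*(e1370) it also includes *pept-1*, *nhx-2* and *pho-1*, which averaged near background there, at 5.71, 5.41 and 5.60. The part of gut content in the *lipl* values was not tested.

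Genes next to the *lipl* genes on the chromosome were checked for shared movement. Of the 16 flanking protein-coding genes, 12 could be matched to a probe set, and limma called 0 of them over both alleles, with 1 at an unadjusted p under 0.05, *nid-1* beside *lipl-1* (0.97 ± 0.32, adjusted p = 0.089). *twk-10*, beside *lipl-4*, differed by -0.07 ± 0.07 (limma adjusted p = 0.697).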

How the data were processed

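Per the labels' protocols, Microarray Suite (MAS) 5.0 turned the scans into probe values, and the authors ran RMA with version 1.4.14 of R's Affymetrix package. The deposited values were read as log2 from their range. RMA usually includes quantile normalization, which would hide a change in total RNA. Of 22625 probe sets, 77 controls were left out, and 22548 were tested. Per the array annotation, 20766 had 1 symbol, 887 several and 895 none, and 20701 were matched to RefSeq genes (WBcel235), used for names, chromosomes and gene order. For lists, the probe set with the highest mean stood for a gene.

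The 20 arrays entered 1 fit, a mean for each genotype, in limma 3.58.1 in R 4.3.3, with 2-sided tests, Benjamini-Hochberg adjustment over all probe sets and a threshold of 0.05. Differences are the double mutant minus *daf-2*, or e1370 minus m577. The fit was tested on simulated data. Named genes were the *lipl* genes, for each called *lipl* gene the 3 closest genes with a mean above the controls, and up to 6 largest called members of each list; regulators that were not called, *atgl-1*, *hosl-1*, *twk-10*, *nid-1* and second probe sets were added after their values were seen. The members and lists were chosen with earlier results of these data known. Alternatives were other scalings, a filter on dim probe sets, array weights, blocks, covariates, a fit of only the genotypes compared, and leaving out arrays. Arrays give no read depth; their number, 5 per genotype, limits precision. Figures were drawn with matplotlib 3.10.9.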

Additional observations from a re-analysis of the deposited data

Results flagged for a closer look

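Among 32 groups of 5 arrays (8 genes in 4 genotypes), 2 held an array far from the other 4 by Dixon's criterion of a gap over range above 0.71, which chance alone gives in about 1 group in 20. *lipl-5* read 12.837 in replicate 2 of *daf-2*(m577), against 12.461 to 12.545 in the other 4. *lipl-6* read 5.081 in replicate 3 of *daf-16*(mgdf50); *daf-2*(m577), against 5.055 to 5.058 in the other 4, all near background.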

How the results depend on the processing

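Over both alleles the *lipl-4* difference stayed between -2.63 and -2.22 under 9 other settings and between -2.53 and -2.35 on leaving out each array, called in all of them. In e1370 it was called under each setting run (-2.94 to -2.76, and -3.04 to -2.69 on leaving out arrays). In m577 it lost its call with the 3′ to 5′ gap as a covariate. The 2 called genes over both alleles became 1, *lipl-4*, with the number in the alternative sample name as a block (*lipl-2* -1.18, limma adjusted p = 0.0553) and with the 3′ to 5′ gap. In m577 the count of 2 became 1 with the replicate block (*lipl-2* -1.27, limma adjusted p = 0.0667), the alternative name block, germ cell and sperm levels as covariates (-1.36, adjusted p = 0.107) and without the 3 arrays of lowest sperm gene level, an alternative chosen after seeing the data (-1.31, adjusted p = 0.0831), and 0 with the 3′ to 5′ gap. Between alleles with *daf-16* the count of 1 became 2 with cyclic loess, without dim probe sets and with array weights, 3 with the germ cell and sperm covariates, and 0 with the alternative name block and without those 3 arrays. On leaving out each array the counts ran from 1 to 2 in e1370, 1 to 2 in m577 and 0 to 2 between alleles with *daf-16*. *lipl-5* joined at -0.88 with cyclic loess (limma adjusted p = 0.0309). *lipl-6*, near background, was called with array weights over both alleles (-0.17, adjusted p = 0.0212) and in m577 (-0.21, adjusted p = 0.00176).

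Uncalled differences changed sign in places. With array weights *lipl-1* was 0.46 over both alleles, 0.16 in e1370 and 0.75 in m577, *lipl-5* was 0.10 over both alleles, and in m577 *lipl-3* was 0.53 and *lipl-7* -0.0068. With the alternative name block *lipl-3* was -0.063 over both alleles and *lipl-7* 0.12 between alleles with *daf-16*, and with the 3′ to 5′ gap *lipl-5* was 0.032 over both alleles. On leaving out each array, *lipl-3* ranged from -0.041 to 0.21 over both alleles and from -0.47 to 0.041 in m577, *lipl-1* from -0.32 to 0.29 in m577, *lipl-4* from -0.20 to 0.0022 between alleles without *daf-16*, and *lipl-7* from -0.50 to 0.20 between alleles with it. The cause of these changes was not tested.

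Called probe sets over both alleles numbered 643 to 3390 of 22548 under the other settings, and in m577 58 to 6645, against 1425 and 404 in the reported fit. The labels do not say whether equal sample numbers mark a shared batch, and the correlations could not settle it. Of 30 pairs with the same replicate number, deviations from the genotype means correlated over 0.1 in 14. Their median was 0.08 and their highest 0.82, against a median of -0.04 in other pairs. For the number in the alternative sample name, the median of 20 pairs was -0.007. Using other probe sets of a gene was not run, since each *lipl* gene had 1. *lbp-8* lost its call with the alternative name block (-1.55, limma adjusted p = 0.15). With that block *fitm-2* was not called (limma adjusted p = 0.0508).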
